A study of Mus musculus with 10 samples.

Results

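The genes described here are 35 immediate early response genes, chosen by symbol from textbook knowledge of the response. The list was proposed with their covariation across the 10 mice and their difference between genotypes in view. All 35 symbols matched 1 row each of the 47333 genes in the count table, and all 35 were expressed enough to be tested among 18024 genes. The measurements are RNA sequencing counts from the right middle lung lobe of untreated (naïve) mice on the C57BL/6J background at 12 weeks of age. The KO group lacks the secreted airway protein gene Bpifb1 and holds 1 male and 4 females, and the WT group carries the gene and holds 2 males and 3 females. Both genotypes shared cages and bedding, and the labels do not say how the KO allele was made. Each sample is taken as 1 mouse, since nothing further in the labels ties samples to animals, so that p-values measure the spread between these samples.

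Immediate early genes are transcribed within minutes of a stimulus, without the need for new protein, when kinase cascades switch on factors that already sit at their promoters. The serum response factor with its Elk partners and the cAMP response element binding protein are the best known of these factors. Most of the messages are short-lived, and many of their products are transcription factors (Fos, Jun, Egr, Nr4a and Klf families) or brakes on the signal itself (dual-specificity phosphatases, RNA decay factors of the Zfp36 family). In the lung Klf2 and Klf4 are best known from endothelium, where blood flow keeps them on.

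Promoter sequences of these genes were searched for a few short motifs. RefSeq promoter windows (GRCm38.p6, 250 bases before to 50 after the start site) were found for 27 of the 35 genes. The genes not matched were Arc, Egr1, Egr3, Fosl1, Ier2, Klf10, Myc and Sik1. The short cAMP response element core TGACG, searched on both strands, occurred in the windows of 15 of the 27 genes, against 23.05% of all 27025 genes with a window. The full element TGACGTCA, which contains the core on both strands, occurred in 3 (Btg2, Dusp1 and Maff), against 2.03%. The core of the serum response element, the CArG box, occurred in 3 (Dusp5, Egr2 and Zfp36), against 1.81%. The AP-1 site TGACTCA, also searched on both strands, to which Fos and Jun proteins bind, occurred in 0 of the 27, against 5.95%, and the TATA box TATAAA on the coding strand in 5, against 9.77%. These matches describe letters in a window and say nothing of binding in these lungs. Sites more than 250 bases upstream, or in the genes not matched (Egr1 among them), could not be seen. A motif missing from a window, such as the CArG box for Fos, may therefore lie outside it.

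The stretches below are those of genes whose values follow, with matches in capitals (CGTCA is the TGACG core read on the other strand). The first 3 lie within the 150 bases upstream of the start site and the other 4 are 30 bases around 1 match or a tandem pair.
Fos (chr12:85473740-85473889, plus strand): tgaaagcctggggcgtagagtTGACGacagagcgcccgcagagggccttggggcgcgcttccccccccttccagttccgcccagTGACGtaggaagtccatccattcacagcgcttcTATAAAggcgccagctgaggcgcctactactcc
Fosb (chr7:19310052-19310195, minus strand): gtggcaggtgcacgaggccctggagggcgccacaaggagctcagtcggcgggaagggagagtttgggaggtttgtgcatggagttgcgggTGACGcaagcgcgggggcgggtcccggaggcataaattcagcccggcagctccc
Nr4a1 (chr15:101266696-101266845, plus strand): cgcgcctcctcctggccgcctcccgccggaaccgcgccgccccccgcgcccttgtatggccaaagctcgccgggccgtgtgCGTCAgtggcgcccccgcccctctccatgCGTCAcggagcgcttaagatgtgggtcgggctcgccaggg
Btg2 (chr1:134079303-134079332, minus strand): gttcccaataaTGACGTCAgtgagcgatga
Dusp1 (chr17:26508597-26508626, minus strand): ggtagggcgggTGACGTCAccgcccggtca
Dusp5 (chr19:53529053-53529082, plus strand): ggggaaatacCCATATTTGGCCTTATATGG
Zfp36 (chr7:28379267-28379296, minus strand): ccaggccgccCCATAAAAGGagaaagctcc
The Fos and Nr4a1 stretches hold 2 separate TGACG cores each, those of Btg2 and Dusp1 hold 2 that overlap within the full element, and the Dusp5 stretch holds 2 CArG boxes end to end.

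Libraries held 21357424 to 28321294 counts, and 3 counts, read as the floor of detection, equalled 0.106 to 0.14 CPM (counts per 1000000 counts of the library, totals scaled by TMM). Bpifb1 measured 0.217 to 1.26 CPM in KO and 28.1 to 79.6 CPM in WT mice, so the genotype labels held in all 10. KO replicate 5, labelled female, had 1.78 CPM of Xist where the other 6 females had 273.7 to 407, and 0 counts of 4 Y-linked genes where males had 2470 to 3441. Its sex label was kept, and the values by sex that rest on it are given beside those without it. None of the 91 genes on 15 cell marker lists, alveolar, club and ciliated cell markers among them, was listed at 0 in all mice, and 90 were tested.

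On the level scale per kilobase of exon, the 35 genes spanned from 0.36 to 181.2 CPM per kilobase (means of 10 mice). This scale allows a rough comparison of genes. The length counts all annotated exons of a gene and can exceed that of its transcripts, so the order depends in part on the annotation. Klf2, a flow-responsive endothelial factor, was highest at 181.2, followed by the AP-1 subunit Jund at 155.7, the small GTPase gene Rhob at 132.4, Jun at 106.7 and the survival factor gene Ier3 at 102.4. The ranges of neighbours in this order overlapped between mice for these 5. Fos itself stood in position 19 of 35 at 13.5, and Fosb at 0.994, Arc at 0.409 and Egr3 at 0.36 were the lowest 3. Arc rested on 17 to 42 counts per mouse and Egr3 on 27 to 56, so counting error weighs most on these.

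**Figure D1:**
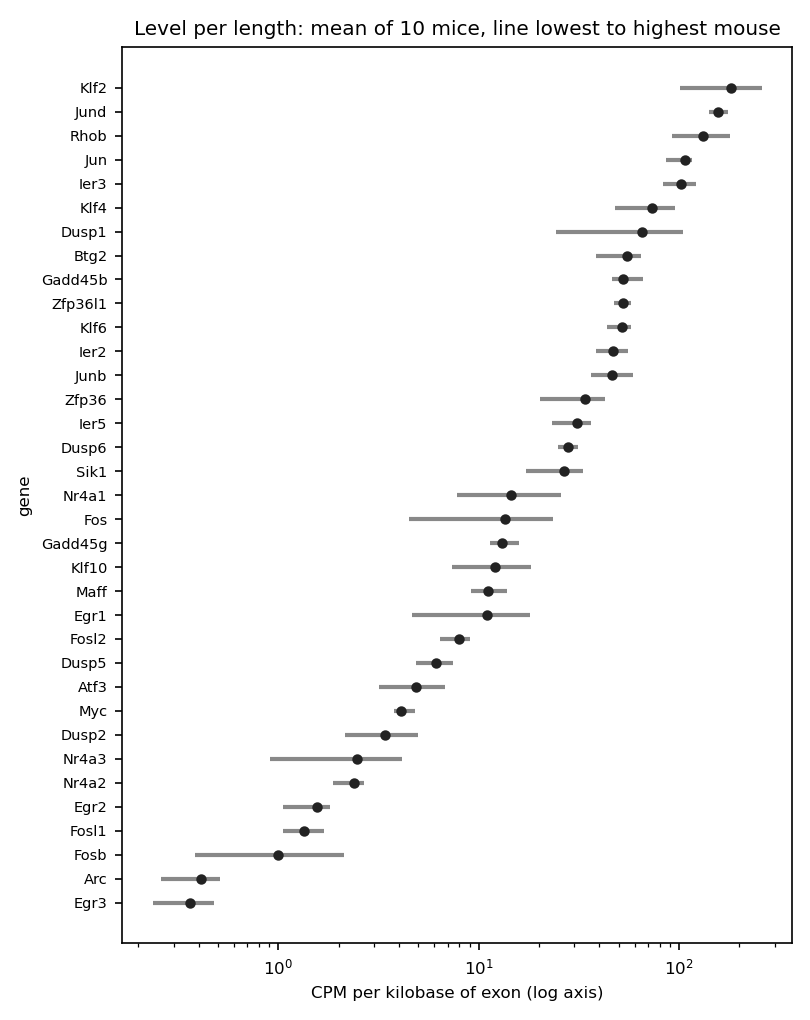
Level of the 35 genes in CPM per kilobase of exon on a log axis, as the mean of 10 mice (points) with lines from the lowest to the highest mouse. Klf2 is at the top with 181.2 and Egr3 at the bottom with 0.36, and the lines of Fos, Fosb, Dusp1, Egr1 and Nr4a3 are long beside those of Jund, Dusp6 and Zfp36l1.

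The genes differed widely in how far mice stood apart. The highest mouse exceeded the lowest by a median of 1.69 times over the 35 genes, against 1.37 times over the 16281 tested genes with a mean of at least 1 CPM. A ratio of at least 2 was reached by 12 of the 35 and by 10.9% of those genes, and one of at least 3 by 6 of the 35 and by 3.23%. The 6 were Fosb (5.57), Fos (5.26), Nr4a3 (4.59), Dusp1 (4.28), Egr1 (3.85) and Nr4a1 (3.31). At the other end stood Zfp36l1 (1.21), Jund (1.25) and Dusp6 (1.25).

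One mouse carried much of this spread. WT replicate 5 had the lowest value of 22 of the 35 genes, where it was lowest for 9.87% of all tested genes. Its library was the deepest, at 28321294 counts. Its summed smooth muscle markers (6 of 6 detected) were 1241 CPM against 899.6 to 974.8 in the other WT mice and 891.7 to 1105 in KO mice, and its adipocyte markers (6 of 6 detected) 355 CPM against 73.7 to 275.2 and 133.8 to 313.7. Its T cell markers (6 of 6 detected) summed to 77.3 CPM, the highest of the 10 mice, and its B cell markers (6 of 6 detected) to 253.5 CPM against 181.9 to 197.6 in the other WT mice and 141.6 to 296.3 in KO mice. It also had the lowest value of 9 of 12 heat shock chaperones, whose sum of 950.5 CPM was the lowest of the 10 mice. Endothelial markers (8 of 8 detected) summed to 3243 CPM in it, within the 2930 to 3611 of the other WT mice. The part of depth or tissue content in its low values was not tested, and in bulk tissue fewer cells of a type and less RNA per cell cannot be told apart.

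**Figure D2:**
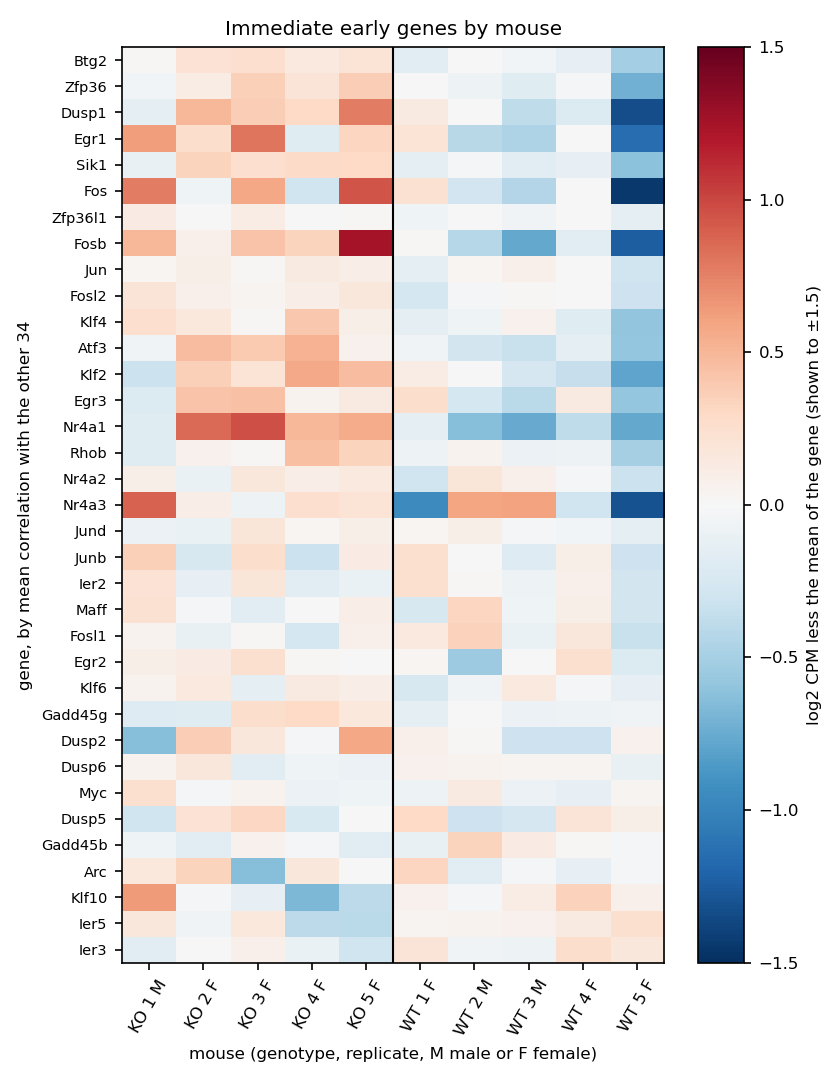
Colour gives log2 CPM less the mean of each gene (limits ±1.5) for 35 genes in 10 mice, with KO mice left and WT mice right of the line. The column of WT replicate 5 is blue over the upper part of the map and is lowest for 22 genes, while Ier3, Ier5 and Klf10 at the bottom run against the others.

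Between KO and WT mice, 28 of the 35 genes had a higher fitted level in KO and 7 a lower one, where 49.3% of all tested genes were higher. The median log2 fold change of the 35 was 0.15, against -0.003 over all tested genes. At an adjusted p under 0.05, edgeR's quasi-likelihood test called 0 of the 35 (0.0222% of all genes, and 0 of 35 against 0.0111% without KO replicate 5), and 13 had an unadjusted p under 0.05 (17.0% of all genes). By the DESeq2 Wald test 8 passed (1.92% of all genes), namely Fosb, Fosl2, Nr4a1, Nr4a3, Atf3, Klf4, Btg2 and Sik1, each higher in KO. Ranges of CPM did not overlap between genotypes for 3, Fosb, Fosl2 and Btg2, all higher in KO (0.96% of all genes in that direction, 0.921% in the other and 1.88% in either). Heat shock chaperones, a stress response of another kind, had a higher fitted level in KO for 10 of 12, with a median log2 fold change of 0.27 (0 called by edgeR, 7 at an unadjusted p under 0.05, 5 called by DESeq2), and their part in these values was not tested. Of the 27 genes with a log2 fold change of at least 0.1 in size, 8 moved by over 1.5 times without WT replicate 5 and 8 without KO replicate 1, the KO male, and none of the 27 turned in sign without any 1 mouse. Because this contrast was in view when the genes were chosen, these counts and the values below describe the mice and support nothing.

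The Fos family encodes the partners that Jun proteins need for strong AP-1 binding. Fos measured 49, 27.5, 43.1, 23.4 and 55.4 CPM in KO replicates 1 to 5 and 33.9, 23.6, 21.3, 29 and 10.5 CPM in WT replicates 1 to 5. KO replicates 1, 3 and 5 lay above all WT mice and the other 2 lay inside the WT range, which WT replicate 5 extended downwards. The means were 39.7 ± 13.8 and 23.7 ± 8.81 CPM (SD, n = 5 each), and the fitted log2 difference was 0.77 (SE 0.38). Fosb measured 7.87, 5.91, 7.53, 7.03 and 13.3 CPM in KO and 5.67, 4.15, 3.29, 4.95 and 2.38 CPM in WT mice, without overlap, for a log2 fold change of 1.01 (SE 0.28). KO replicate 5 was highest for both genes, and without it the log2 fold changes were 0.61 for Fos and 0.80 for Fosb.

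The other 2 members of that family behaved otherwise. Fosl2, a more stable AP-1 subunit, ran from 78.8 to 87.8 CPM in KO and from 61.9 to 77.8 CPM in WT mice, a narrow separation with a log2 fold change of 0.26 (SE 0.06). Fosl1 stayed near its mean of 2.73 CPM in both groups, with a log2 fold change of -0.07 (SE 0.15). Its exons share 1163 of 2033 bases with Ccdc85b on the opposite strand, so its value is uncertain if reads were counted without strand.

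Among the Jun genes, Jun measured 347.1, 359, 343.6, 371.1 and 362.7 CPM in KO and 305.1, 345.1, 356.5, 337.1 and 274.8 CPM in WT mice. The KO mice lay within a narrow band that 2 of the WT mice shared, and the log2 fold change was 0.16 (SE 0.07, and 0.10 without WT replicate 5). Jund, the subunit least dependent on stimulation, measured 243.1, 241.8, 293.1, 263.8 and 276.3 CPM in KO and 264, 275.4, 253.9, 251 and 234.6 CPM in WT mice, with ranges that overlapped in part (log2 fold change 0.04, SE 0.07, and 0 without WT replicate 5). Junb gave 0.10 (SE 0.16), which was under 0.1 before rounding, so that it is not among the 27 genes above. Its log2 fold change ran from -0.05 to 0.20 when any 1 mouse was left out. Exons of all 3 Jun genes overlap a gene on the opposite strand (Junos, Gm11175 and Prdx2), which touches how exactly their levels are known. Estimated counts were not whole in any of the 10 mice for Jun and Jund, and whole in all 10 for Junb and Fosl1.

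Of the zinc finger factors of the Egr family, Egr1 measured 71.3, 55.6, 80.5, 40.7 and 57.8 CPM in KO and 53.2, 34.6, 33.7, 45.9 and 20.9 CPM in WT mice. KO replicates 1, 2, 3 and 5 stood above all 5 WT mice and KO replicate 4 lay among them, with a log2 fold change of 0.70 (SE 0.29). Egr2 (5.59 ± 0.357 against 4.95 ± 0.967 CPM) and Egr3 (1.76 ± 0.321 against 1.41 ± 0.353 CPM, SD, n = 5 each) were low in both groups and overlapped. Their log2 fold changes were 0.15 (SE 0.13) and 0.26 (SE 0.19), and without WT replicate 5 they were 0.08 and 0.09.

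The Nr4a genes encode orphan nuclear receptors whose activity is set mainly by how much of them is made. Nr4a1 measured 40.6, 83, 89.8, 65.1 and 67.7 CPM in KO and 41.8, 29.7, 27.4, 35.4 and 27.2 CPM in WT mice. The 4 KO females were far above every WT mouse, and the KO male, at 40.6 CPM, lay just under the highest WT female but above both WT males (27.4 and 29.7 CPM). The log2 fold change was 0.97 (SE 0.16), and it ran from 0.83 to 1.14 when any 1 mouse was left out. Nr4a3 gave 0.73 (SE 0.18), which was 0.40 with no term for sex, and its differences by sex are described below. Nr4a2 gave 0.20 (SE 0.10) at a mean of 9.63 CPM.

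**Figure D3:**
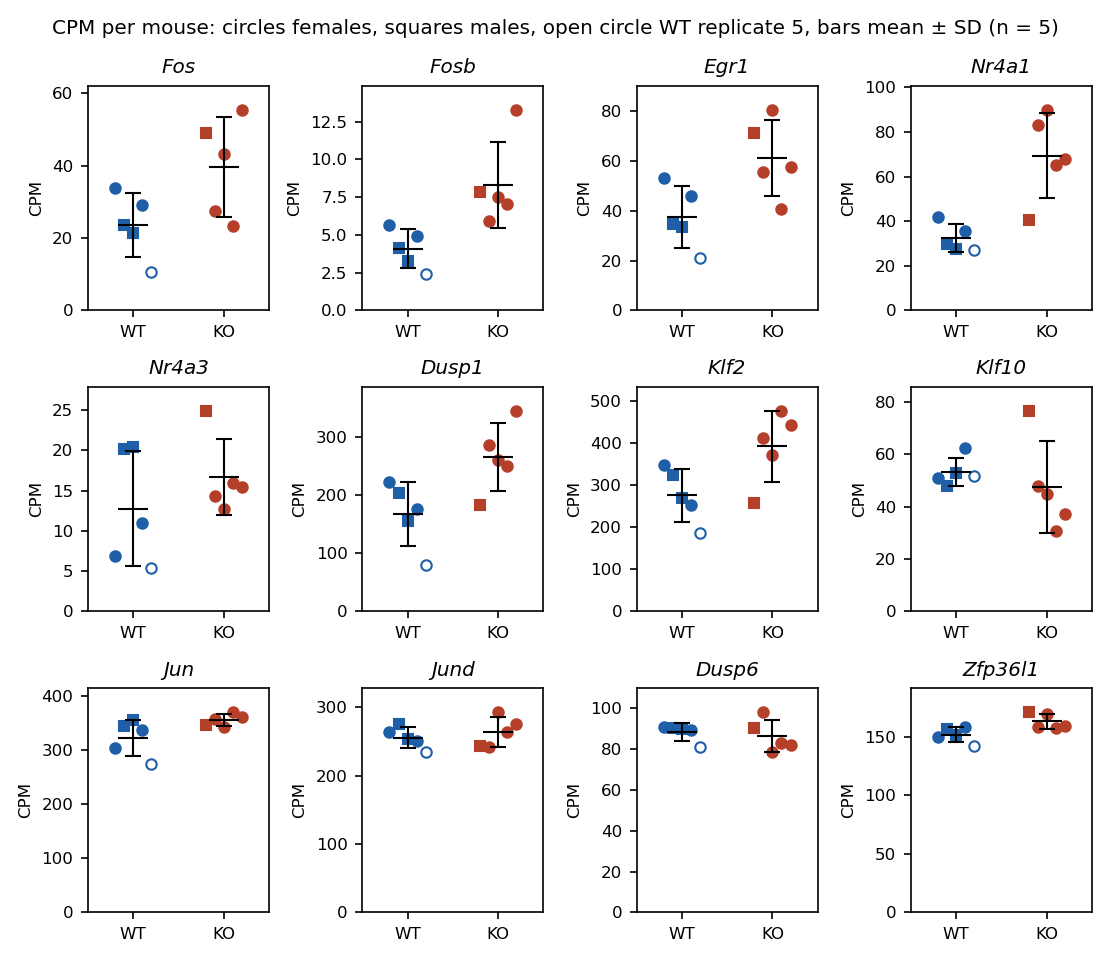
CPM per mouse for 12 of the genes in WT (blue) and KO (red) mice, with squares for males, circles for females, an open circle for WT replicate 5 and bars for the mean ± SD (n = 5). Fosb separates the genotypes, Nr4a1 does so apart from the KO male at 40.6 CPM, Nr4a3 is highest in the 3 males, and Jun, Jund, Dusp6 and Zfp36l1 stay within narrow bands.

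The feedback genes split within their own families. Dusp1, a phosphatase that switches off stress kinases, measured 183.5, 286.7, 261.5, 250.9 and 345 CPM in KO and 223.3, 204.7, 155.7, 175.7 and 80.6 CPM in WT mice. The 4 KO females exceeded all WT mice and the KO male did not. Its log2 fold change of 0.62 (SE 0.31) was 0.36 without WT replicate 5, a change of over 1.5 times. Dusp6, which acts on ERK, measured 90.1, 98, 78.3, 82.9 and 82 CPM in KO and 90.9, 90.3, 89.9, 89.3 and 80.7 CPM in WT mice, with a log2 fold change of -0.02 (SE 0.06). Dusp2 (0.12, SE 0.17) and Dusp5 (-0.08, SE 0.10) overlapped between genotypes.

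Zfp36, which directs AU-rich messages such as those of cytokines to decay, ran from 111.8 to 148.3 CPM in KO and from 70.1 to 115.7 CPM in WT mice (log2 fold change 0.36, SE 0.14, and 0.20 without WT replicate 5). Its paralog Zfp36l1 measured 171.2, 158.1, 169.3, 157.9 and 159.3 CPM in KO and 150.2, 156.7, 151.5, 158.2 and 142 CPM in WT mice. That was the smallest spread of the 35 genes, and the log2 fold change was 0.12 (SE 0.05). Of its 2990 exon bases 1672 overlap Gm26669 on the opposite strand, so its level and spread are uncertain if reads were counted without strand. Sik1, a kinase that restrains CREB coactivators, ran from 124.6 to 169.3 CPM in KO and from 88.2 to 131.7 CPM in WT mice (log2 fold change 0.41, SE 0.12). The KO male held the lowest KO value.

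Of the Krüppel-like factors, Klf2 measured 257, 412.6, 372.9, 477 and 443.5 CPM in KO and 348.4, 323.6, 271.1, 253.9 and 186.4 CPM in WT mice. The 4 KO females were above all WT mice and the KO male was below 3 of them. The log2 fold change was 0.46 (SE 0.22), and it was 0.27 without WT replicate 5 and 0.70 in females alone. Klf10, an early TGF-beta target, ran the other way, at 76.5, 48, 44.9, 30.7 and 37.2 CPM in KO and 51, 48, 53, 62.3 and 51.6 CPM in WT mice. The 4 KO females lay below the 3 WT females, the KO male was the highest of all 10 mice, and the log2 fold change was -0.14 (SE 0.21). In females alone it was -0.45. Klf4 (0.41, SE 0.10) and Klf6 (0.14, SE 0.07) were higher in KO with overlapping ranges.

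Among the remaining genes, Btg2, an antiproliferative cofactor, ran from 151.6 to 177.9 CPM in KO and from 105.1 to 148.5 CPM in WT mice, without overlap (log2 fold change 0.35, SE 0.09). Atf3, a stress-induced repressor, had a log2 fold change of 0.51 (SE 0.12) and ranges that met, at 9.8 to 14.6 against 6.84 to 9.85 CPM. Rhob gave 0.27 (SE 0.14, 0.15 without WT replicate 5 and 0.43 without the KO male), and Myc (0.07), Maff (0.11), Gadd45g (0.13), Ier2 (0.02) and Arc (0.04) were closer to 0. Ier3 (-0.23, SE 0.07), Ier5 (-0.18, SE 0.12) and Gadd45b (-0.10, SE 0.07) had lower means in KO, with overlapping ranges.

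Within females, 15 of the 35 genes had ranges that did not overlap between 4 KO and 3 WT mice, 13 of them higher in KO, where 12.5% of all tested genes did not overlap. Without KO replicate 5 the counts were 15 and 13, and 15.9% of all tested genes did not overlap. The median log2 fold change of the 35 was 0.23 in females alone, with or without that mouse. For Fos it was 0.62 with it and 0.37 without it, for Fosb 0.98 and 0.67, for Nr4a1 1.14 and 1.19, for Klf2 0.70 and 0.68, and for Klf10 -0.45 and -0.41. The KO male lay outside the range of the 4 KO females for 21 of the 35 genes, above it for 9 and below it for 12. Its log2 ratio to their mean was largest in size for Klf10 (0.93), Dusp2 (-0.92), Nr4a1 (-0.91), Nr4a3 (0.77), Klf2 (-0.73) and Dusp1 (-0.64). The share of all tested genes outside the KO females in this mouse is not given, so the count of 21 is not read as particular to these genes. With 1 KO male no interaction of genotype with sex was tested.

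The choice of genes did not rest on the sex label. Covariation across all the mice was in view, however, and it holds any difference between males and females. Of the 35 genes 18 had a higher fitted level in males and 17 a lower one, with a median log2 fold change of 0.06 (0.05 without KO replicate 5) against -0.006 over all tested genes. At the same threshold edgeR called 1 (0.583% of all genes, and 1 against 0.514% without KO replicate 5), and 7 had an unadjusted p under 0.05 (15.1% of all genes, and 6 against 14.5% without that mouse). The gene was Nr4a3. It measured 24.9 CPM in the KO male and 20.2 and 20.4 CPM in the WT males, 14.3, 12.7, 16 and 15.5 CPM in KO females (replicates 2 to 5), and 6.9, 10.9 and 5.42 CPM in WT females (replicates 1, 4 and 5). All males exceeded all females, which held for 2.26% of tested genes. In either direction 2 of the 35 did not overlap, Nr4a3 and Dusp5 (4.81% of tested genes, and the same 2 against 5.8% without KO replicate 5).

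Nr4a3 rose in males by 1.13 on the log2 scale (SE 0.19, edgeR adjusted p 0.0296, from means of 11.7 ± 4.16 in females and 21.8 ± 2.66 CPM in males). Without KO replicate 5 it was 1.16 (edgeR adjusted p 0.04999). Over 16 other settings the log2 fold change stayed between 0.90 and 1.40, the adjusted p ran from 2.81e-07 to 0.296 over those settings, and 8 of the 16 kept it under 0.05. It was lost without any 1 of KO replicates 1, 2 and 3 and WT replicates 1, 2 and 3 (adjusted p from 0.061 to 0.11).

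Its paralog Nr4a1 pointed the other way, at -0.53 on the log2 scale (SE 0.18, edgeR adjusted p 0.223, and -0.55 at 0.27 without KO replicate 5), with 27.4 to 40.6 CPM in males against 27.2 to 89.8 CPM in females. Without KO replicate 1, the KO male, it was -0.28 (edgeR adjusted p 0.678), and with no genotype term -0.84 (edgeR adjusted p 0.49). Dusp5, a nuclear phosphatase of ERK, measured 12 to 12.5 CPM in males and 12.7 to 18.5 CPM in females, without overlap (2.55% of tested genes were lower in males in this way). On the log2 scale males differed from females by -0.44 (SE 0.11, edgeR adjusted p 0.0818, and -0.45 at 0.102 without KO replicate 5). Dusp5 passed by edgeR with no filter (adjusted p 0.0317) and without KO replicate 4 (adjusted p 0.0352), and its exons share 547 of 2473 bases with a gene on the opposite strand. DESeq2 called both Nr4a1 and Dusp5 (its adjusted p was 0.0342 for Nr4a1 and 0.0192 for Dusp5), with 3 of the 35 called in all (2.42% of all genes). Heat shock chaperones differed by the same label. Of 12 tested, 9 rose in males at that threshold, also without KO replicate 5, with log2 fold changes from 0.60 to 2.73 (edgeR). Without KO replicate 1, the KO male, edgeR called 0 of all tested genes between the sexes, so none of these. The chaperones summed to 2923 CPM in KO replicate 1, 2659 in WT replicate 2 and 1810 in WT replicate 3. In females they summed to 950.5 to 1487 CPM. Their part in the Nr4a3 difference was not tested. Of the 90 tested cell marker genes 1 passed between the sexes by edgeR, the alveolar type 1 gene Rtkn2, and DESeq2 called 10, among them 4 of 6 red cell and 2 of 6 T cell markers. Red cell markers summed to 13060 to 19510 CPM in males and 11530 to 14070 CPM in females (6 of 6 higher in males at an unadjusted p under 0.05). T cell markers summed to 47.6 to 57.5 and 52.6 to 77.3 CPM (4 of 6 at an unadjusted p under 0.05), and the part of cell content in the differences by sex was not tested.

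**Figure D4:**
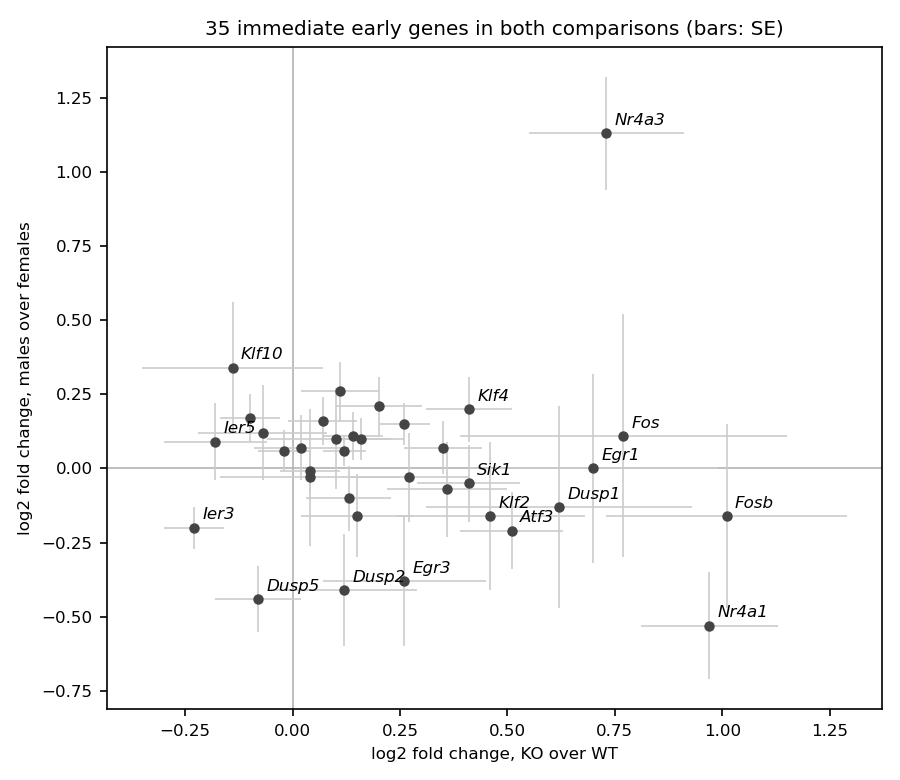
Log2 fold change between genotypes (horizontal axis) and between sexes (vertical axis) for the 35 genes, with bars for the SE. Nr4a3 lies apart at 0.73 and 1.13, its paralog Nr4a1 at 0.97 and -0.53, Fosb farthest right at 1.01, and most other genes lie near 0 on the vertical axis.

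Across mice the 35 genes varied together only in part. Over the 595 pairs the mean Pearson r of log2 CPM across 10 mice was 0.22 and the median 0.24, 409 pairs had a positive r, 90 (15.1%) had one of at least 0.7 and 9 one of at most -0.7. Among 3257 genes, taken at steps of 5 through the tested genes with a mean of at least 1 CPM, 3.24% of pairs had an r of at least 0.7. Over all tested genes with a mean of at least 1 CPM the mean r was 0. All pairs share the same libraries and their scaling, and no p is given since covariation was in view when the genes were chosen. Without WT replicate 5 the mean r of the 35 was 0.08, and after the genotype and sex effects were removed it was 0.21.

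Closest to Fos were Egr1 (r 0.92) and Fosb (0.90), followed by Zfp36 (0.82), Zfp36l1 (0.80), Junb (0.79), Dusp1 (0.77) and Btg2 (0.71). For Fos and Fosb the rank correlation was 0.84, and r was 0.84 without WT replicate 5 and 0.74 without the 2 mice farthest from the median of Fos. Egr1 kept 0.84, Junb 0.77, Zfp36l1 0.62 and Zfp36 0.57 without WT replicate 5, while Dusp1 had 0.46 and Btg2 0.33. Jun itself had an r of 0.55 with Fos, and of -0.12 without that mouse. The 4 genes with a negative r with Fos were Ier3 (-0.44), Gadd45b (-0.32), Ier5 (-0.30) and Arc (-0.08).

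**Figure D5:**
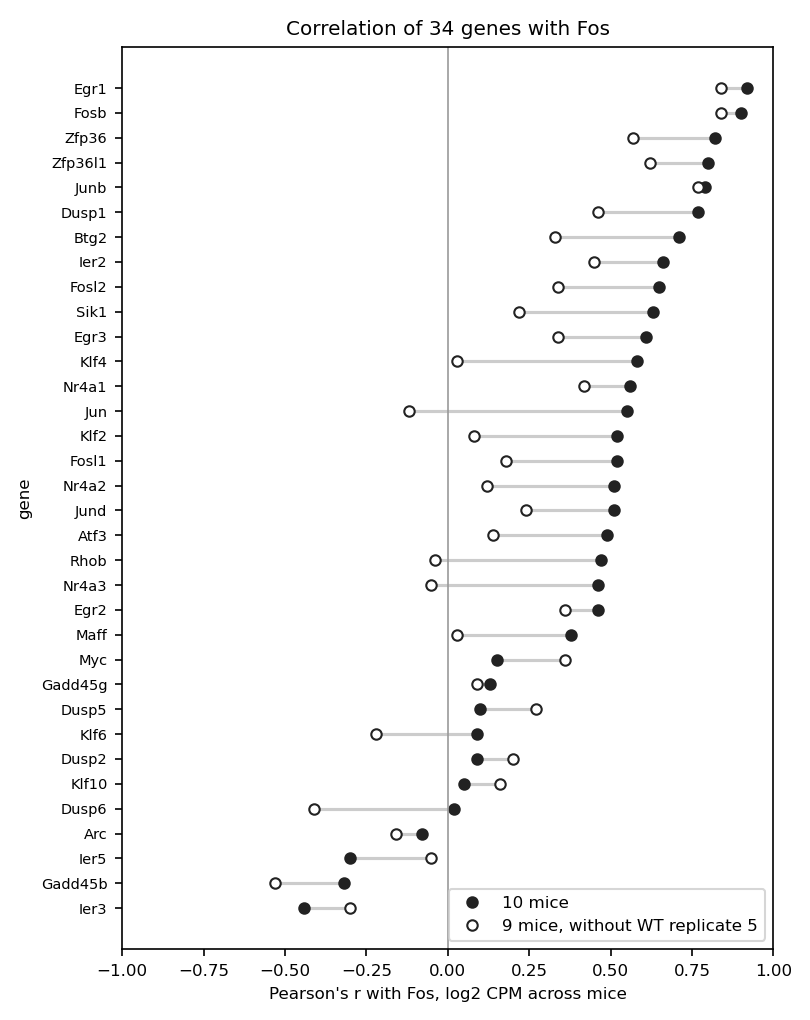
Pearson's r of log2 CPM with Fos for 34 genes over 10 mice (filled) and over 9 mice without WT replicate 5 (open). Egr1, Fosb and Junb keep an r of 0.77 or more in both, whereas Jun moves from 0.55 to -0.12 and Klf4 from 0.58 to 0.03.

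A second set followed Klf2 more than Fos. With Klf2 the r over 10 mice was 0.93 for Sik1, 0.92 for Dusp1 and Rhob, 0.86 for Zfp36, 0.84 for Atf3, 0.83 for Btg2 and 0.79 for Nr4a1. Without WT replicate 5 these were 0.88 for Sik1 and Dusp1, 0.86 for Rhob, 0.75 for Zfp36, 0.76 for Atf3 and Nr4a1, and 0.68 for Btg2, while Fos and Klf2 had an r of 0.08. Klf10 (-0.73, and -0.90 without that mouse) and Ier5 (-0.81 and -0.80) ran against Klf2. These sets were picked after their values were seen. Over the 41 pairs within a family or role the mean r was 0.27 (0.16 without WT replicate 5), against 0.21 (0.08) over the other pairs. Paralogs ranged widely, from 0.90 for Fos with Fosb, 0.84 for Nr4a2 with Nr4a3, 0.76 for Egr1 with Egr3 and 0.72 for Klf2 with Klf4 to 0.12 for Nr4a1 with Nr4a3, 0.03 for Jun with Junb and -0.73 for Klf2 with Klf10.

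The promoter matches can be set beside these values. Among genes with a window other than Fos, the 14 with a TGACG core had a median r with Fos of 0.52 and the 12 without it one of 0.30. With and without the full element, found in 3 genes, the medians were 0.71 and 0.49. For the CArG box, also in 3, they were 0.46 and 0.51, and for the TATA box 0.46 and 0.50, so the motifs did not all point one way. These medians are a description over genes that share the same mice, WT replicate 5 included. Without that mouse the 3 genes with the full element had an r with Fos of 0.33 (Btg2), 0.46 (Dusp1) and 0.03 (Maff). Medians without it are not given.

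The genes outside the list whose level across the 10 mice was most like the mean of the 35 (12845 genes with a mean of at least 5 CPM were ranked) were Mpp2 (r 0.97), Neurl1b (0.96), Psd (0.93), Slc35d1 (0.93), Sbno2 (0.92), Rarg (0.89), Klf16 (0.88), Ptpn1 (0.87), Resf1 (0.87) and Dlg4 (0.86). WT replicate 5 had the lowest value of all 10. Mpp2 measured 12.8 CPM in it and 15.8 to 20.1 CPM in the other mice. Without that mouse Mpp2 and Neurl1b kept an r of 0.90, while Resf1 had 0.36 and Dlg4 0.48.

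A further list held 43 other genes of the response. Of these 40 were tested, 26 with a higher and 14 with a lower fitted level in KO, a median log2 fold change of 0.14, and 0 past an adjusted p under 0.05 by edgeR's test (16 at an unadjusted p under 0.05, 3 called by DESeq2). Between the sexes 0 of the 40 passed by edgeR's test. There 9 had an unadjusted p under 0.05 (15.1% of all genes), and DESeq2 called 4 (2.42% of all genes). WT replicate 5 was lowest for 21 of the 40 (9.87% of all tested genes). It was highest of all mice for others, among them Id2 at 105.6 CPM and Id3 at 181.2 CPM. Per1, a clock gene that is also induced by cAMP and glucocorticoids, measured 49.9 CPM in WT replicate 5 against 121.1 to 203.4 CPM in the other mice. Cebpd, an acute phase factor, measured 56.6 against 110.1 to 171.7 CPM. Errfi1, which restrains the EGF receptor, measured 95.2 against 156.3 to 309.4 CPM. On the list of 8 glucocorticoid-responsive genes WT replicate 5 was lowest for 3. These were Per1, which is on both lists, Klf9, and Tsc22d3 at 102 against 278.6 to 415.9 CPM.

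For the factors upstream of the response, of 16 genes for the serum response factor, its partners, CREB family members, MAP kinases and the receptor gene Egfr, 12 had a higher fitted level in KO, with a median log2 fold change of 0.09, and 0 passed by edgeR's test between genotypes or sexes (4 and 2 at an unadjusted p under 0.05, and 1 and 1 called by DESeq2). Of 11 AP-1 partners and repressors 9 were higher in KO, with a median of 0.05. By edgeR's test 0 passed in either comparison, with 2 and 6 at an unadjusted p under 0.05, and DESeq2 called 0 and 1. Over all tested genes 49.3% were higher in KO. At an unadjusted p under 0.05 there were 17.0% of all genes between genotypes and 15.1% between sexes, and DESeq2 called 1.92% and 2.42%.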

How the data were processed

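The authors deposited 1 table of estimated counts per gene, unscaled between samples. STAR 2.6.0, Salmon 0.9.1, mm10 and GRCm38 are named per the submitters' processing notes, without roles; annotation, filters and use of strand are not given in the sources used here. A stranded kit and single reads of 50 bases are given per the labels' protocols. Values were rounded, since 30.1% of those above 0 were not whole (tolerance 0.01). Identifiers were matched to GENCODE M21 (GRCm38), 47281 of 47333, and 0 columns lacked a sample.

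edgeR 4.0.16 (R 4.3.3, robust quasi-likelihood fit, genotype and sex as terms, TMM, filterByExpr with minimum count 10 and total 15) tested all genes, with Benjamini-Hochberg adjustment and two-sided tests. SE is the log2 fold change over the root of F. Correlations used log2 CPM with prior count 2. Alternatives were DESeq2 1.42.0, its size factors, other filters, no covariate, no robust dispersion, females alone and each mouse left out. Scripts were tested on simulated counts. The floor of detection covers counting error only, while SDs and SEs include the spread between mice.

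The genes and lists were chosen with earlier results of these data known. By rule, values per mouse are given for the 8 genes with the highest and the 3 with the lowest ratio of mice. They are also given for genes called by edgeR in the main fit and for Fos, Jun, Egr1 and Dusp1. The 10 most alike genes outside the list are named with their r. Females alone without KO replicate 5 was added after seeing the data. Others were named after their values were seen.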

Additional observations from a re-analysis of the deposited data

Results flagged for a closer look

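Dixon's test of the highest or lowest mouse, run on 70 sets (35 genes in the 5 mice of each genotype), stood out in 6, where chance gives about 3.5. Fosb reached 13.3 CPM in KO replicate 5, while the KO mice beside it had 5.91 to 7.87 CPM. Nr4a3 in KO replicate 1, the KO male, was 24.9 CPM against 12.7 to 16 CPM, and Sik1 in the same mouse 124.6 CPM against 160.4 to 169.3 CPM. In WT replicate 5, Sik1 was 88.2 CPM against 119.7 to 131.7 CPM and Dusp6 80.7 CPM against 89.3 to 90.9 CPM in the other WT mice. Arc in WT replicate 1 was 1.54 CPM against 1.1 to 1.21 CPM, at a level where counts per mouse ran from 17 to 42.

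In 3 genes every KO female lay to the same side of every WT female. The 1 KO male lay on the opposite side of both WT males, and this difference was not tested. The share of all tested genes with this pattern is not given, so the 3 are not read as particular to the list. Within females alone, ranges did not overlap for 12.5% of all tested genes. The log2 ratio of mean CPM, KO over WT, was 0.70 in females and -0.21 in males for Klf2, 0.43 and -0.17 for Rhob, and -0.45 and 0.60 for Klf10.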

How the results depend on the processing

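The median log2 fold change of the 35 genes kept its sign between genotypes in all 18 alternatives and ran from 0.12 to 0.23 when 1 mouse was left out. Between the sexes it ran from -0.04 (without WT replicate 5) to 0.08 in those fits and was -0.02 with no covariate, so it has no settled sign. The mean pairwise r of 0.22 ran from 0.08 to 0.24 without 1 mouse.

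The count of genes called between KO and WT, 4 of all tested genes, was 50 with no filter and 346 by the DESeq2 Wald test, with 0 and 8 of the 35 among them, 2 in females alone with KO replicate 5 omitted (chosen after seeing the data), and from 2 to 18 without 1 mouse (0 of the 35 in each). That between the sexes, 105, was 197 with no filter, 436 by DESeq2, 41 with no covariate and from 0 to 195 without 1 mouse. Leaving out KO replicate 1 gave the 0 (1919 at an unadjusted p under 0.05), KO replicate 2 gave 46, WT replicate 2 gave 43 and WT replicate 4 gave 195. Between genotypes, the count was 2 without KO replicate 2, 4 or 5 or WT replicate 1, and 18 without WT replicate 3. Nr4a3 was not called between the sexes with no filter (adjusted p 0.0813) or no covariate (0.296). Without KO replicate 1 no KO male was left, so sex was then compared within WT mice and genotype within females. For genotype that fit repeats the one in females alone, with a median log2 fold change of the 35 of 0.23 in both. Why these results moved was not examined further, and the cause was not tested. Arc and Egr3 are limited by depth. No paired analysis was possible because the labels give no numbers shared between the genotypes.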
